A study of Vitis x labruscana x Vitis vinifera with 36 samples.

Results

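The 10 genes of the lipoxygenase route were followed through the ripening of 'Shine Muscat' berries, a table grape bred from Vitis labruscana Bailey and Vitis vinifera L. They were taken as the rows of the deposited count table whose identifiers stand in a list of 10 genes, of 30661 rows in all. The list holds 8 lipoxygenases, 1 allene oxide synthase and 1 hydroperoxide lyase. These enzyme classes come with the list, because the count table pairs no identifier with a name. RNA was sequenced from flesh and from skin of seedless and of seeded berries at stages 1, 3 and 4. The 12 groups have 3 libraries each, 36 in all. All groups are the same cultivar, and the series sets transcripts beside the volatiles of treated seedless berries and of berries not treated. The sources used here give neither the agent that made berries seedless, nor its dose, nor dates for the stages, and stage 2 was not analysed here.

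Lipoxygenases add oxygen to the polyunsaturated fatty acids linoleic and linolenic acid and so make fatty acid hydroperoxides. In plants these hydroperoxides are a branch point. Hydroperoxide lyase cleaves some of them to C6 aldehydes such as hexanal. These are the green leaf volatiles that give unripe grapes and crushed leaves their grassy note. From some of the hydroperoxides, allene oxide synthase opens the route to jasmonates, hormones of wounding, defence and development. The list does not divide the lipoxygenases by the hydroperoxides they make.

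Depth bears on the less abundant members. The 6 seeded stage 1 libraries held 0.609 to 2.38 M counts (M, mega), and the other 30 held 2.23 to 7.34 M. Rows with ENSRNA identifiers took 0.622% to 3.14% of the former and 0.123% to 1.22% of the latter. Levels are given in CPM, counts scaled to one common library total, after TMM, edgeR's correction for library composition, each with its SD over 3 libraries. The libraries were made mainly from transcript 3′ ends and no gene lengths were used, so levels are compared between groups and not between genes. Differences are log2 fold changes with their SE from edgeR's quasi-likelihood test, called at a Benjamini-Hochberg adjusted p under 0.05 over all genes tested. The labels do not say whether the 3 libraries of a group came from separate vines or berries, so a p-value here weighs a difference only against the spread of the libraries in hand, and that spread may be technical. In bulk tissue, fewer cells of a type and less RNA per cell cannot be told apart. The labelled tissues could not be checked against marker genes, since marker lists by product name could not be matched to the identifiers.

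The members differed widely in how often they were read. VIT_06s0004g01510 supplied 60111 of the lipoxygenase reads summed over all libraries. VIT_09s0002g01080 had 1291 reads, VIT_01s0010g02750 had 1266 and VIT_05s0020g03170 had 1131. VIT_14s0128g00780 had 169 reads in 24 libraries and VIT_13s0064g01480 had 110 reads in 20 libraries, so the values of these genes rest on few counts. VIT_14s0128g00790 had 3 reads, all in seedless skin. VIT_06s0004g01500, which stands just before VIT_06s0004g01510 in identifier order, had 0 reads in 36 libraries. A count of 0 over the 136239940 counts allows up to 0.022 CPM. The sources used here do not say how reads that match several genes were treated, so reads of near-identical neighbours could be split between them. The allene oxide synthase VIT_18s0001g11630 had 6193 reads and the hydroperoxide lyase VIT_12s0059g01060 had 75847. After the filter on low counts, 6 members were tested in flesh and 8 in skin and in the comparison of the tissues. VIT_06s0004g01500 and VIT_14s0128g00790 entered no test. VIT_13s0064g01480 passed the filter in skin only through seeded berries at stage 1, where it is high, so differences that turn on that group were bound to appear and are given as reads, with no p. It and VIT_14s0128g00780 entered no test within flesh, and their tissue differences are given as reads too.

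The most-read lipoxygenase and the hydroperoxide lyase were both several-fold higher in skin than in flesh at every stage. VIT_06s0004g01510 lay at 729.6 to 897 CPM in the 9 seedless skin libraries and at 69.0 to 129 CPM in the 9 seedless flesh libraries. In seeded berries it lay at 385 to 1003 CPM in skin and at 52.0 to 105 CPM in flesh. No flesh library reached the lowest skin library. Skin exceeded flesh by 3.12 ± 0.10, 3.19 ± 0.09 and 2.80 ± 0.09 log2 units at the 3 stages in turn (SE, 6 libraries a side), which is 8.72-fold, 9.12-fold and 6.95-fold (edgeR adjusted p = 2.8e-33, 3.6e-36 and 6.3e-34).

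Hydroperoxide lyase, the enzyme of the C6 branch, had the same order of the tissues. VIT_12s0059g01060 lay at 571 to 1091 CPM in the 18 skin libraries and at 158 to 340.3 CPM in the 18 flesh libraries, without overlap. It was higher in skin by 1.69 ± 0.09, 1.98 ± 0.09 and 1.72 ± 0.09 log2 units at stages 1, 3 and 4 (edgeR adjusted p = 3.2e-22, 3.1e-26 and 1.0e-23). The lipoxygenase VIT_09s0002g01080 was also higher in skin, by 1.34 ± 0.27, 1.02 ± 0.24 and 1.44 ± 0.27 log2 units (edgeR adjusted p = 6.2e-05, 0.00032 and 1.4e-05). Thinned to the depth of the shallowest library, its calls at stages 3 and 4 were lost (edgeR adjusted p = 0.12 and 0.16).

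The allene oxide synthase, the enzyme of the jasmonate branch, had the opposite order. VIT_18s0001g11630 was lower in skin by 0.63 ± 0.13 log2 units at stage 4 (edgeR adjusted p = 7.6e-05), a call kept without any 1 of the 12 libraries. At stage 4 its mean was 39.2 ± 8.41 CPM in seedless skin against 61.6 ± 14.1 in seedless flesh, and 63.8 ± 7.34 in seeded skin against 97.0 ± 25.2 in seeded flesh. At stages 1 and 3 the log2 differences were -0.42 ± 0.17 and -0.39 ± 0.14 (edgeR adjusted p = 0.05, just under the threshold before rounding, and 0.024). Both rested on single libraries: the stage 1 call was lost without any 1 of 9 libraries, with adjusted p up to 0.57 without seeded flesh replicate 3, where the log2 difference was -0.16. At the depth of the shallowest library it was -0.13 (adjusted p = 0.73). The stage 3 call was lost without seeded flesh replicate 3 (adjusted p = 0.13), seeded skin replicate 2 (0.059), seedless flesh replicate 3 (0.084) or seedless skin replicate 1 (0.075), and at the depth of the shallowest library (0.062).

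Pooled over seedless and seeded berries, VIT_14s0128g00780 and VIT_13s0064g01480 had more reads in skin than in flesh at each stage, by an uneven margin. At stage 1, VIT_14s0128g00780 had 22 reads in skin and 7 in flesh. The ratio of reads per total was 2.71, with an exact 95% interval for counting error of 1.12 to 7.50. Its mean level was 1.40 CPM in skin and 1.61 in flesh. In seeded berries alone it had 7 reads in each tissue, at 1.28 ± 0.907 CPM in skin and 3.22 ± 3.59 in flesh. In seedless berries it had 15 reads in skin and 0 in flesh, so the pooled ratio hides unlike treatments. At stage 3, VIT_14s0128g00780 had 63 reads in skin and 2 in flesh, and the ratio was 35.5 (interval 9.43 to 299). At stage 4 it had 65 reads in skin and 10 in flesh (6.88, interval 3.51 to 15.0). VIT_13s0064g01480 had 67 skin and 2 flesh reads at stage 1 (28.8, interval 7.68 to 243), and 61 of the skin reads came from seeded berries. At stages 3 and 4 it had 12 and 16 skin reads against 7 and 6 flesh reads (1.93, interval 0.701 to 5.79, and 2.82, interval 1.05 to 8.81), so at stage 3 the tissues could not be told apart at this depth. VIT_05s0020g03170 did not pass the test in either direction, with log2 differences of -0.49 ± 0.23 and -0.56 ± 0.25 at the later stages 3 and 4 (edgeR adjusted p = 0.078 and 0.064), and neither did VIT_01s0010g02750. Of the 6 members that could also be tested within flesh, 4 were called at each stage, 3 higher and 1 lower in skin. Of all 14841 tested genes, 35.4%, 40.1% and 41.3% were called at stages 1, 3 and 4, of which 20.1%, 22.7% and 23.3% of all tested genes were higher and 15.3%, 17.3% and 18% lower in skin.

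**Figure D1:**
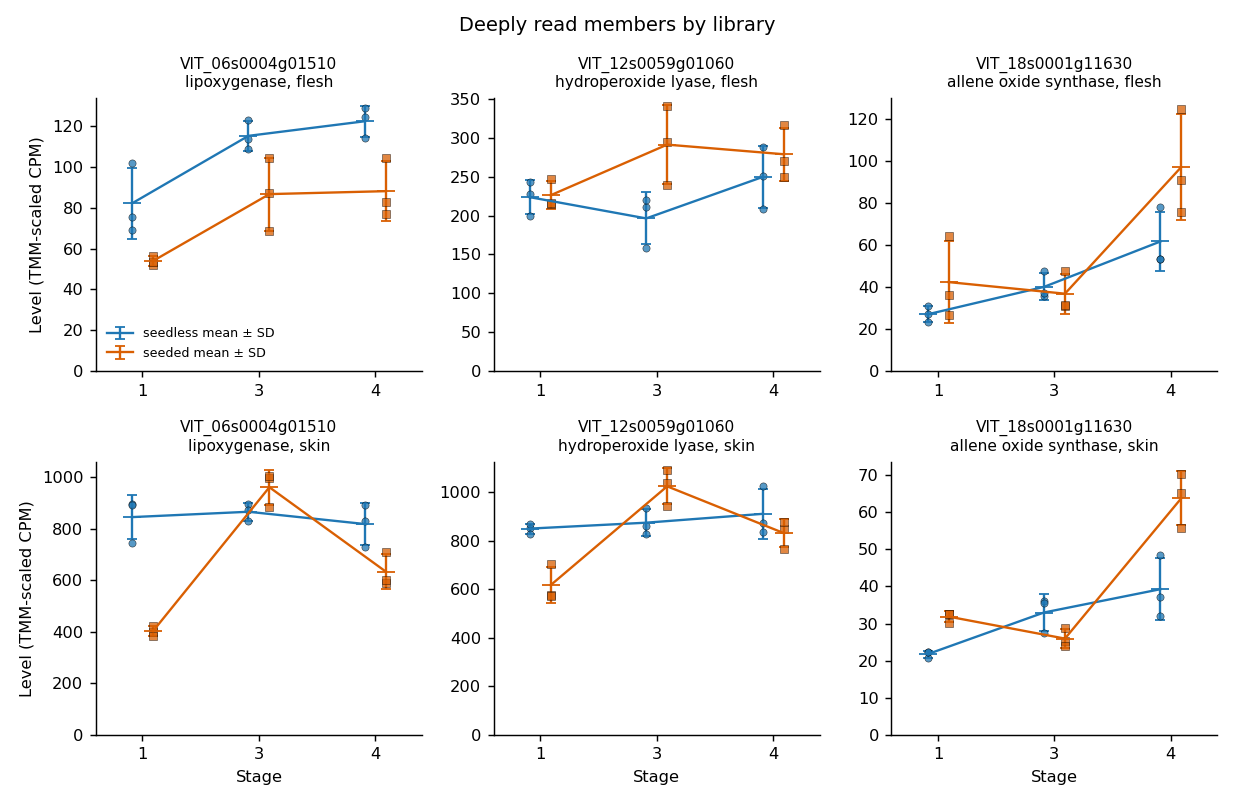
Levels of the 3 deeply read members, VIT_06s0004g01510, VIT_12s0059g01060 and VIT_18s0001g11630, in TMM-scaled CPM (y axis, from 0, scaled separately in each panel) at stages 1, 3 and 4 (x axis), with flesh above and skin below. Each point is a library, bars are the mean ± SD of 3, and lines join the means of seedless (blue circles) and seeded (orange squares) berries; in seeded skin VIT_06s0004g01510 moved from 402 to 961 and then to 633 CPM, while the seedless skin means lay between 818 and 866 CPM.

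Seedless and seeded skin differed at stage 1. The levels of VIT_06s0004g01510 in the 3 seedless skin libraries of stage 1 were 745, 897 and 892 CPM, and in the 3 seeded ones 399.8, 422 and 385 CPM. The seedless libraries all lay well above the seeded ones. The difference was 1.07 ± 0.10 log2 units, or 2.09-fold (edgeR adjusted p = 3.4e-10), and it held without any 1 library. VIT_12s0059g01060 stood at 854, 868 and 827 CPM in seedless and 578, 702 and 571 CPM in seeded skin. These groups did not overlap either, and the difference of 0.46 ± 0.10 log2 units, or 1.37-fold, was called (edgeR adjusted p = 0.00063).

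The allene oxide synthase went the other way in the same libraries. VIT_18s0001g11630 had 20.6, 22.2 and 22.3 CPM in seedless and 30.2, 32.7 and 32.7 CPM in seeded skin at stage 1. All seeded libraries lay above all seedless ones. The log2 difference was -0.56 ± 0.20 (edgeR adjusted p = 0.04). Leaving out any 1 library ended the call, for each of the 6 libraries compared, with adjusted p from 0.059 to 0.11. The call was also lost in a fit of those 6 libraries alone (0.08), and at the depth of the shallowest library the log2 difference was -0.24 (0.69).

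Another lipoxygenase, VIT_13s0064g01480, was nearly absent outside the seeded skin of stage 1. Its reads there were 34, 5 and 22, which is 15.6, 4.95 and 12 CPM, against 3, 3 and 0 reads in the seedless skin libraries. The lowest seeded library was above the highest seedless one, at 1.04 CPM. Pooled per total, seeded skin held 20.2 times the seedless level, with an exact 95% interval for counting error of 8.77 to 57.2. Of the other 7 members tested in skin, the 3 above were called at stage 1, and 20.2% of the 14193 genes tested in skin were called there.

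At stage 3 the skins of seedless and seeded berries were closer for the deeply read members. VIT_06s0004g01510 had 897, 828 and 872 CPM in seedless and 996, 883 and 1003 CPM in seeded skin, and VIT_12s0059g01060 had 861, 935 and 826 CPM in seedless and 944, 1091 and 1036 CPM in seeded skin. Seeded means were the higher ones for both, and the groups overlapped for the lipoxygenase. The log2 differences were -0.15 ± 0.10 and -0.23 ± 0.10, and neither was called (edgeR adjusted p = 0.37 and 0.13). Of the 8 members tested, none other than VIT_13s0064g01480 was called, where 10.6% of genes were called. That gene entered the skin fit only through seeded skin at stage 1, so its call here is no support, and the groups overlapped at 0 reads. It had 6, 0 and 6 reads in seeded skin and 0 reads in each seedless library, for which the exact 95% lower bound of the seeded-over-seedless ratio is 2.84, for counting error (edgeR adjusted p = 0.041). This call was lost without seeded replicate 1 (0.12), seeded replicate 3 (0.12), or seedless replicate 1 (0.094), 2 (0.1) or 3 (0.12), and in a fit of the 6 libraries alone the gene did not pass the filter.

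At stage 4 the skin difference of stage 1 returned in smaller size for the lipoxygenase and in the same direction for the allene oxide synthase. VIT_06s0004g01510 had 831, 729.6 and 894 CPM in seedless and 711, 589 and 600.4 CPM in seeded skin. The groups did not overlap, and the difference was 0.37 ± 0.10 log2 units, or 1.29-fold (edgeR adjusted p = 0.023). This call was lost without seeded replicate 2 (0.12) or 3 (0.14) or seedless replicate 1 (0.084) or 3 (0.15), and at the depth of the shallowest library (0.17). VIT_18s0001g11630 had 37.1, 32.1 and 48.5 CPM in seedless and 70.4, 55.9 and 65.1 CPM in seeded skin, again without overlap. Its log2 difference was -0.70 ± 0.16 (edgeR adjusted p = 0.0069), 1.62-fold lower in seedless berries, and was not called without seedless replicate 1 (0.054) or 2 (0.093). These 2 of 8 members were called where 3.48% of genes were. VIT_14s0128g00780 had 52 reads in seedless skin, 35 of them in replicate 1, and 13 in seeded skin, and its log2 difference of 1.65 ± 0.81 was not called (edgeR adjusted p = 0.31).

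In flesh the most-read lipoxygenase was again higher in seedless berries at stage 1. VIT_06s0004g01510 had 69.0, 102 and 75.6 CPM in seedless flesh, from 241, 389 and 277 reads, and 52.0, 53.2 and 56.5 CPM in seeded flesh, from 36, 30 and 66 reads. All seedless libraries were above all seeded ones. The difference of 0.61 ± 0.18 log2 units, 1.53-fold, was called (edgeR adjusted p = 0.017), but not without seeded replicate 1 (0.053) or seedless replicate 2 (0.12), nor at the depth of the shallowest library (0.19).

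At stage 3 VIT_06s0004g01510 had 114, 123 and 109 CPM in seedless and 87.2, 104 and 68.5 CPM in seeded flesh, without overlap. The log2 difference of 0.42 ± 0.15 was not called (edgeR adjusted p = 0.059). It was called with no filter (0.035), relative log expression size factors (0.05), the replicate number as a block (0.038) and without seeded replicate 2 (0.016). Of 14 alternatives, the other 10 left this difference uncalled, with values as small as 0.27 and adjusted p up to 0.35. At stage 4 it had 124, 114 and 129 CPM in seedless and 77.1, 105 and 82.6 CPM in seeded flesh, also without overlap, with a called difference of 0.49 ± 0.15 log2 units (edgeR adjusted p = 0.049). That call sat at the threshold. It was lost without seeded replicate 1 (0.23) or 3 (0.21), without seedless replicate 1 (0.14), 2 (0.091) or 3 (0.18), by DESeq2 (adjusted p = 0.052) and at the depth of the shallowest library (0.12).

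The lipoxygenase VIT_09s0002g01080 had the reverse direction in flesh at stage 1. Its levels were 4.30, 3.66 and 3.55 CPM in seedless and 27.5, 7.10 and 12 CPM in seeded flesh, where the seeded values rested on 19, 4 and 14 reads. The seeded libraries all lay above the seedless ones but spread widely. The log2 difference was -1.99 ± 0.51, 3.98-fold lower in seedless flesh (edgeR adjusted p = 0.0046). Without seeded replicate 1, the highest of these libraries, it was -1.38 and not called (adjusted p = 0.12). VIT_14s0128g00780 had 0 reads in seedless flesh at stage 1 and 0, 4 and 3 reads in seeded flesh, an exact 95% lower bound of 6.41 on the seeded-over-seedless ratio, and was too low to be tested in flesh. VIT_01s0010g02750 spread from 1.77 to 27.5 CPM in seeded flesh at stage 1 and overlapped the seedless libraries, at 6.28 to 11.5 CPM. Its log2 difference of -0.78 ± 0.43 was not called (edgeR adjusted p = 0.23), but was without seeded replicate 2 (0.045). Of 13 alternatives, the other 12 left it uncalled, with values as small as -0.069 and adjusted p up to 0.95.

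Hydroperoxide lyase differed between seedless and seeded flesh at stage 3. VIT_12s0059g01060 had 158, 211 and 219.7 CPM in seedless and 340.3, 239 and 294 CPM in seeded flesh. The seedless libraries were all below the seeded ones, by 0.56 ± 0.14 log2 units or 1.47-fold (edgeR adjusted p = 0.0047). The call was lost without seeded replicate 1 (0.065) or seedless replicate 1 (0.058). At stage 1 the means were 224 ± 22.2 and 226 ± 17.8 CPM and at stage 4 249.6 ± 40.02 and 279 ± 33.9 CPM, with overlapping libraries at both. The change of this difference was not called from stage 1 to 3 (-0.56 ± 0.20 log2 units, edgeR adjusted p = 0.077). Nor was it from stage 3 to 4 (0.41 ± 0.19, edgeR adjusted p = 0.28). Of 18 alternatives, 3 called the first of these changes and 15 left it uncalled, with adjusted p up to 0.2.

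The allene oxide synthase was not called between seedless and seeded flesh with all libraries and the filter, though it was near the threshold at stages 1 and 4. VIT_18s0001g11630 had 26.9, 30.8 and 23.2 CPM in seedless and 36.1, 26.6 and 64.2 CPM in seeded flesh at stage 1, with overlap, and a log2 difference of -0.74 ± 0.29 (edgeR adjusted p = 0.077), called with no filter (0.01) and without seeded replicate 2 (0.032). Of 13 alternatives, 11 left this difference uncalled, with values as small as -0.21 and adjusted p up to 0.74. At stage 4 it had 53.5, 53.4 and 77.9 CPM in seedless and 125, 75.5 and 90.8 CPM in seeded flesh. A single seedless library overlapped the seeded ones there, and the log2 difference was -0.65 ± 0.21 (edgeR adjusted p = 0.09). It was called with the replicate number as a block (0.032), with no filter (0.0028), without the seeded stage 1 libraries (0.05), and without seeded replicate 2 (0.042) or seedless replicate 3 (0.021). Of 14 alternatives, 9 left it uncalled, with values as small as -0.42 and adjusted p up to 0.38. Of the 6 members tested in flesh, 2 were called at stage 1, 1 at stage 3 and 1 at stage 4, where 17.1%, 10.7% and 3.7% of the 13639 tested genes were called.

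The plot of the treatment effects sets the 6 members tested in both tissues side by side. Over the tested members the median log2 difference between seedless and seeded berries was -0.37, -0.05 and 0.15 in flesh at stages 1, 3 and 4, beside 0.05, 0.01 and -0.00 over all tested genes. In skin, over the 8 members tested there, it was -0.29, -0.19 and 0.00 beside 0.02, -0.00 and -0.01. Those 8 include VIT_14s0128g00780 and VIT_13s0064g01480, which are not plotted, and the latter passed the filter only through seeded skin at stage 1.

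**Figure D2:**
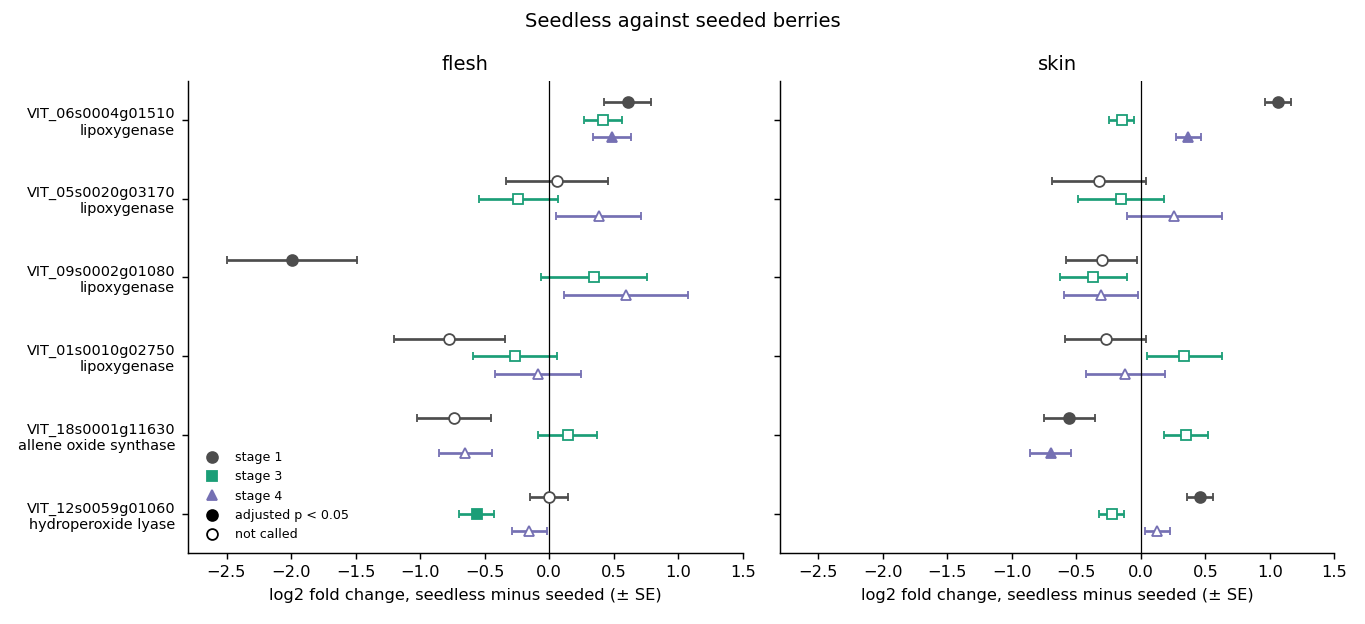
Log2 fold change of seedless over seeded berries (x axis, ± SE) for the 6 members tested in both tissues (y axis), in flesh (left) and skin (right), at stages 1 (circles), 3 (squares) and 4 (triangles). Filled symbols passed the adjusted threshold of 0.05; VIT_06s0004g01510 lies to the right of 0 at all 3 stages in flesh and at stages 1 and 4 in skin.

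Whether the treatment difference was unequal between skin and flesh was tested directly. No member of 8 was called at stage 1, 3 or 4, where 2.18%, 0.445% and 0.128% of genes were called. At an unadjusted p under 0.05 the edgeR test gave 4, 3 and 1 members, and DESeq2 called 0, 0 and 0. Among the unadjusted were VIT_14s0128g00780 at stage 1 and VIT_13s0064g01480 at stages 3 and 4, both too low to be tested in flesh. These unadjusted counts add no support, as the share of all genes at that p is not given. The nearest to the threshold by adjusted p were VIT_09s0002g01080 at stage 1, at 1.71 ± 0.56 log2 units (edgeR adjusted p = 0.095), and VIT_06s0004g01510 at stage 3, at -0.56 ± 0.17 (0.11). Both were called with skin and flesh of the same number as a pair (0.045 and 0.031), a pairing that the labels do not state. Of 19 and 20 alternatives, 17 and 18 left these differences uncalled, with adjusted p up to 0.42 and 0.41. A p that misses the threshold does not show that the tissues acted alike.

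The change of the treatment difference between stages was called for 4 members. In skin the seedless-minus-seeded difference of VIT_06s0004g01510 fell by 1.22 ± 0.14 log2 units from stage 1 to stage 3 (edgeR adjusted p = 1.5e-07), rose by 0.52 ± 0.14 from stage 3 to stage 4 (0.013) and was lower at stage 4 than at stage 1 by 0.70 ± 0.14 (-0.70; 0.00039). The 3 values share libraries. The step from stage 3 to stage 4 was not called without seedless skin stage 4 replicate 3 (0.052). VIT_12s0059g01060 moved with the lipoxygenase from stage 1 to stage 3, by -0.69 ± 0.14 log2 units (edgeR adjusted p = 0.00096). The allene oxide synthase VIT_18s0001g11630 moved against both, by 0.91 ± 0.26 from stage 1 to stage 3 (0.024) and by -1.05 ± 0.23 from stage 3 to stage 4 (0.0027). The first of these was lost at the depth of the shallowest library (0.42) and without seeded skin stage 3 replicate 2 (0.062), seedless skin stage 1 replicate 1 (0.06), or seedless skin stage 3 replicate 2 (0.065) or 3 (0.059).

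In flesh, VIT_09s0002g01080 was the called member. Its treatment difference was higher than at stage 1 by 2.34 ± 0.65 log2 units at stage 3 and by 2.59 ± 0.70 at the last stage (edgeR adjusted p = 0.019 and 0.01). Both were lost without seeded flesh stage 1 replicate 1 (0.14 and 0.082), the library in which it stood highest, and the first also without seeded flesh stage 3 replicate 1 (0.052) or seedless flesh stage 3 replicate 2 (0.057). In skin, 3 of 8 members were called from stage 1 to 3, 2 from stage 3 to 4 and 1 from stage 1 to 4, where 7.86%, 7.5% and 15.4% of genes were. In flesh, 1 of 6 was called from stage 1 to 3 and 1 from stage 1 to 4, where 8.03% and 12.2% of genes were. None was called from stage 3 to 4, where 4.07% of genes were (2 at an unadjusted edgeR p under 0.05, 0 by DESeq2). For the unadjusted count the share of all genes is not given.

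Ripening changed the members differently. From stage 1 to stage 3, averaged over seedless and seeded berries, VIT_06s0004g01510 rose by 0.59 ± 0.12 log2 units in flesh (edgeR adjusted p = 0.00031) and by 0.64 ± 0.07 in skin (5.3e-09). The rise in skin lay in the seeded berries, at 402 ± 18.8 and then 961 ± 67.4 CPM without overlap, while the seedless libraries overlapped, at 845 ± 86.2 and 866 ± 34.6 CPM. This inequality is the stage 1 to stage 3 change of the treatment difference given above. Hydroperoxide lyase rose in skin by 0.38 ± 0.07 (6e-05), with 617 ± 73.9 and 1024 ± 74.3 CPM in seeded and 849.8 ± 20.5 and 874 ± 55.9 CPM in seedless skin. VIT_13s0064g01480 had 61 and then 12 reads in seeded skin and 6 and then 0 reads in seedless skin. In flesh 1 of 6 members and in skin 2 of the 7 others were called, where 17% and 21.3% of genes were.

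From stage 3 to stage 4 the allene oxide synthase rose in both tissues. VIT_18s0001g11630 gained 1.00 ± 0.15 log2 units in flesh, 2.01-fold (edgeR adjusted p = 1e-05), and 0.77 ± 0.12 in skin, 1.71-fold (1.8e-06). In seeded flesh it went from 36.8 ± 9.44 to 97.0 ± 25.2 CPM and in seeded skin from 25.9 ± 2.51 to 63.8 ± 7.34 CPM, each without overlap. Seedless flesh went from 40.02 ± 6.43 to 61.6 ± 14.1 CPM without overlap, and seedless skin from 33.0 ± 4.90 to 39.2 ± 8.41 CPM with overlap. The seeded step was the larger one in skin by the test of the difference given above. In flesh that test did not call a difference (-0.79 ± 0.31 log2 units, edgeR adjusted p = 0.18). It was called with no filter (0.02) and without seedless stage 4 replicate 3 (0.05). Of 19 alternatives, 17 left it uncalled, with adjusted p up to 0.37.

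Of the tested lipoxygenases, 2 fell in flesh and 3 fell in skin over the same step. VIT_09s0002g01080 fell by 1.07 ± 0.32 log2 units in flesh and by 0.65 ± 0.19 in skin (edgeR adjusted p = 0.0066 and 0.0072), and the call in skin was lost at the depth of the shallowest library (0.094). VIT_05s0020g03170 fell by 0.58 ± 0.23 in flesh and by 0.64 ± 0.25 in skin (0.041 and 0.044). Each of these calls of VIT_05s0020g03170 was lost without any 1 of 8 of the 12 libraries, with adjusted p of 0.051 to 0.21 in flesh and 0.059 to 0.14 in skin, and by DESeq2 (adjusted p = 0.081 and 0.064). VIT_06s0004g01510 fell in skin by 0.34 ± 0.07 (0.00014), where seeded berries went from 961 to 633 CPM, and was not called in flesh. In flesh 3 of 6 and in skin 4 of 8 members were called, where 37.2% and 34.2% of genes were, so the members' share is not far above the background of this step.

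**Figure D3:**
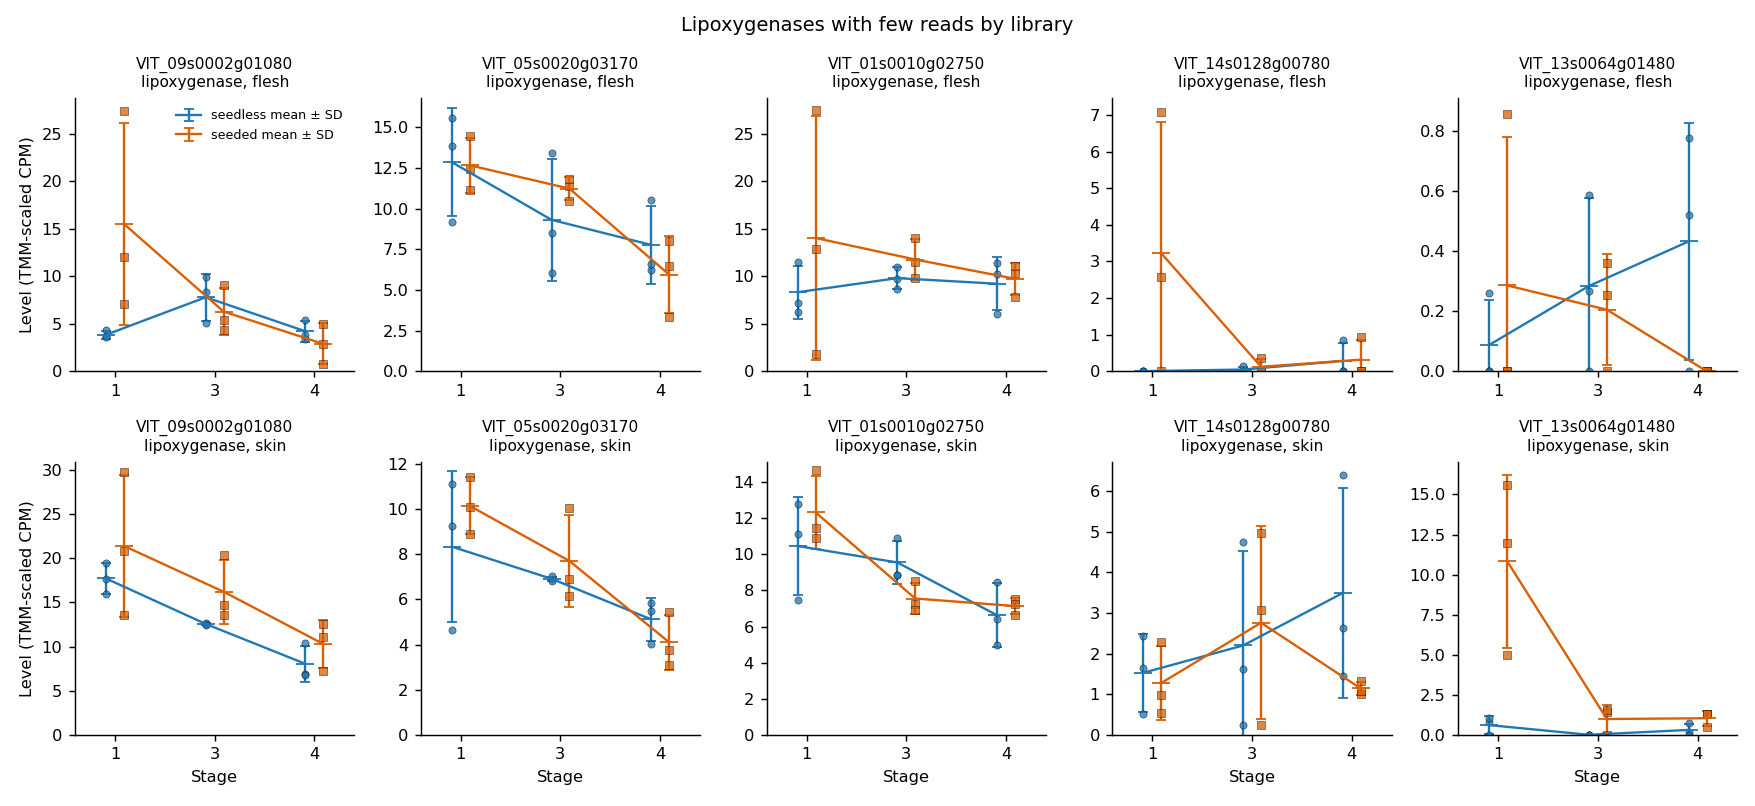
Levels of the lipoxygenases VIT_09s0002g01080, VIT_05s0020g03170, VIT_01s0010g02750, VIT_14s0128g00780 and VIT_13s0064g01480, which had 110 to 1291 reads each over all libraries, in TMM-scaled CPM (y axis, from 0, scaled separately in each panel) at stages 1, 3 and 4 (x axis), with flesh above and skin below. Points are libraries and bars the mean ± SD of 3 in seedless (blue circles) and seeded (orange squares) berries; VIT_13s0064g01480 reaches 4.95 to 15.6 CPM in seeded skin at stage 1 and at most 1.54 CPM in every other group.

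Ordered by mean level over the 12 groups, VIT_06s0004g01510 stood highest in seeded skin at stage 3, and its neighbours in that order, the 3 seedless skin groups, overlapped each other and it. Seeded skin at stage 4, with 633 ± 67.3 CPM, and at stage 1, with 402 ± 18.8 CPM, followed, each without overlap with the next group. The lowest group was seeded flesh at stage 1, with 53.9 ± 2.30 CPM. Hydroperoxide lyase had seeded skin at stage 3 at the top too, at 1024 ± 74.3 CPM, with the next 4 skin groups overlapping from one to the next. Seeded skin at stage 1 was the lowest skin group, apart from its neighbours. All 6 flesh groups overlapped with their neighbours down to seedless flesh at stage 3, at 196 ± 33.3 CPM.

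The allene oxide synthase was highest in seeded flesh at stage 4, at 97.0 ± 25.2 CPM, without overlap with the next group, seeded skin at stage 4. Seedless flesh at stage 4, further down the order, did overlap it, with a highest library of 77.9 CPM against a lowest of 75.5 CPM. VIT_18s0001g11630 was lowest in seedless skin at stage 1, at 21.7 ± 0.952 CPM, also without overlap with its neighbour. The 10 groups between overlapped from each to the next. VIT_09s0002g01080 ran from 21.4 ± 8.09 CPM in seeded skin at stage 1 to 2.87 ± 2.15 CPM in seeded flesh at stage 4. VIT_05s0020g03170 ran from 12.9 ± 3.31 CPM in seedless flesh at stage 1 to 4.10 ± 1.21 CPM in seeded skin at stage 4. VIT_01s0010g02750 ran from 14.0 ± 12.9 CPM in seeded flesh at stage 1 to 6.63 ± 1.76 CPM in seedless skin at stage 4. For these 3 genes every group overlapped with the next in order.

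Reads of both branch enzymes were also set against each other within a library, which no scaling between libraries affects. The share of allene oxide synthase reads among the reads of both enzymes was 2.36%, 2.50% and 2.63% in seedless and 4.97%, 4.45% and 5.42% in seeded skin at stage 1. At stage 3 the order was turned, with 3.07%, 3.71% and 4.13% in seedless and 2.61%, 2.13% and 2.70% in seeded skin. At stage 4 it was turned back, with 4.08%, 3.71% and 4.52% in seedless and 7.65%, 6.79% and 6.90% in seeded skin. The groups did not overlap at any of the 3 stages in skin. The exact two-sided permutation test gave p = 0.1 at each stage, the smallest that 3 against 3 libraries allow, and 0.133 after adjustment over the 12 ratio comparisons.

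In flesh the share was higher, at 10.8% ± 1.05 in seedless and 15.7% ± 6.66 in seeded berries at stage 1, 17.0% ± 1.85 and 11.3% ± 2.80 at stage 3, and 19.9% ± 4.03 and 25.5% ± 2.57 at stage 4 (SD, n = 3; exact permutation p = 0.4, 0.1 and 0.2). The groups stood apart at stage 3, with seedless berries higher as in skin, and overlapped at stages 1 and 4. Adjusted over the 12 comparisons these are 0.436, 0.133 and 0.24.

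VIT_06s0004g01510 was read more often per hydroperoxide lyase read in seedless than in seeded flesh at every stage. The ratio was 0.283, 0.447 and 0.378 against 0.242, 0.216 and 0.261 at stage 1, 0.719, 0.583 and 0.495 against 0.256, 0.437 and 0.233 at stage 3, and 0.431, 0.546 and 0.511 against 0.244, 0.418 and 0.305 at stage 4. No seeded flesh library reached the lowest seedless library of its stage. In skin the groups stood apart at stage 1, with 0.995 ± 0.108 against 0.655 ± 0.048, and at stage 4, with 0.900 ± 0.046 against 0.763 ± 0.077. They overlapped at stage 3, with 0.994 ± 0.094 against 0.944 ± 0.125 (SD, n = 3; exact permutation p = 0.1, 0.1 and 0.6, adjusted 0.133, 0.133 and 0.6), where leaving out seeded replicate 2 turned the sign, to -0.017. In flesh the exact permutation p was 0.1 at each of the 3 stages, adjusted 0.133.

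Within the lipoxygenases, VIT_06s0004g01510 took 84.7% to 97.5% of the family's reads in every skin library. In flesh it took 70.0% to 85.9%, except in seeded flesh at stage 1, where it took 42.9%, 65.2% and 58.9%. This group had the lowest mean depth of the 12, at 0.858 M counts, and it was the group in which VIT_09s0002g01080, VIT_01s0010g02750 and VIT_14s0128g00780 had their highest flesh means.

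**Figure D4:**
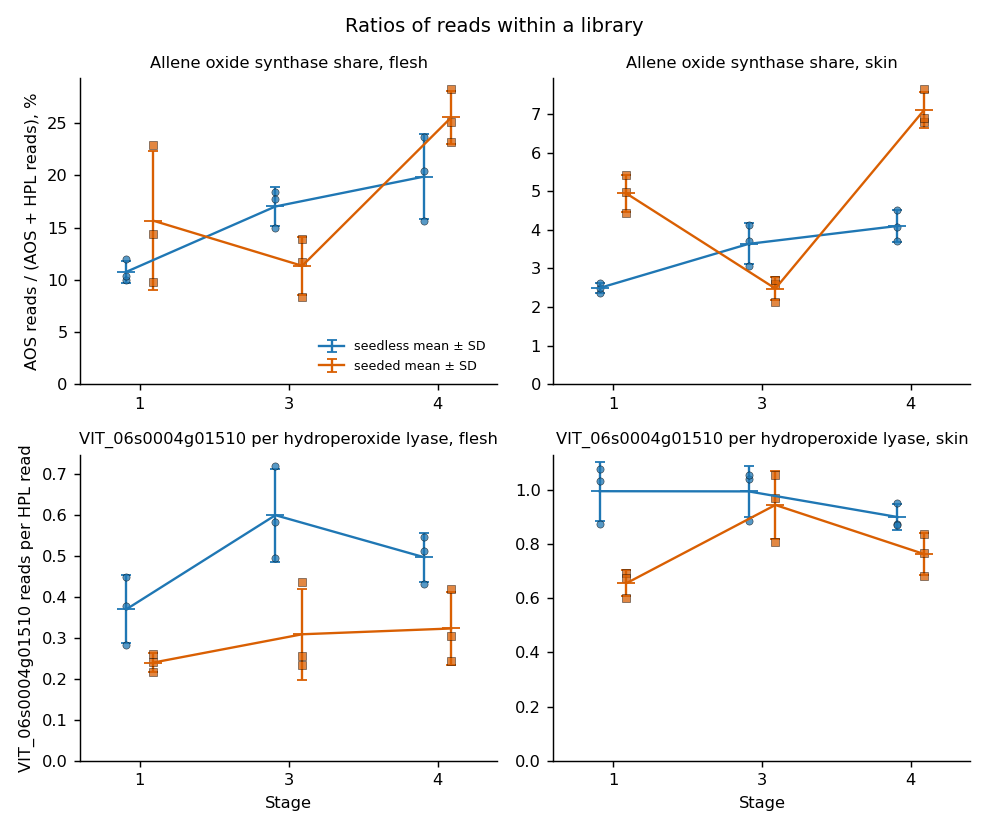
Ratios of reads within a library at stages 1, 3 and 4 (x axis), in flesh (left) and skin (right). The upper panels give allene oxide synthase (AOS) reads as a percentage of AOS plus hydroperoxide lyase (HPL) reads and the lower panels VIT_06s0004g01510 reads per HPL read; points are libraries and bars the mean ± SD of 3, and in skin the AOS share of seeded berries (orange squares) is above that of seedless berries (blue circles) at stages 1 and 4 and below it at stage 3.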

How the data were processed

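One table was used. It holds raw read counts per gene and library, whole numbers as the authors deposited them, with no normalization. Per the labels' protocols, RNA of skin and flesh was purified with a kit and made into Lasy-seq libraries. Per the submitters' processing notes, fastp 0.20.0, HISAT2 2.2.1 and featureCounts were used; the sources used here name no genome build, annotation or strand setting. The table had 0 columns of libraries other than the 36. ENSRNA rows were kept.

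All differences came from edgeR 4.0.16 in R 4.3.3 (filterByExpr with a minimum count of 10, TMM, robust quasi-likelihood F-test), fitted over all genes. Simulated data were run only for seedless against seeded berries at stages 1 and 4 in each tissue, and their outcome is not given here. Flesh and skin were fitted apart, with 18 libraries each, for treatment and ripening. All 36 libraries were fitted together for tissue comparisons. Library pairs of a group differed by at least 3.45 times the variance of counting, so none was taken as a repeat deposit of another; this does not show separate berries. Intervals cover counting error only, as reads are not independent molecules. Alternatives were DESeq2 1.42.0, relative log expression size factors, no filter, no ENSRNA rows, a common depth of 608901 counts, replicate blocks, 6 libraries only and each library left out; the fit without the seeded stage 1 libraries and the ratios with a library left out were chosen after seeing the data.

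The members and lists were chosen with earlier results of these data known. All 10 members are named by rule, and so are the 3 genes most like in pattern to each of 3 members. Lists of other pathway genes and of tissue and seed markers, written by product name, were not matched to identifiers, so they have no result, and no gene sequences were used here.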

Additional observations from a re-analysis of the deposited data

Results flagged for a closer look

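The treatment difference (seedless minus seeded, log2) changed between stages by the test of that change for 4 members, in 8 tests that share libraries. In skin these were VIT_06s0004g01510 from stage 1 to 3 (-1.22, edgeR adjusted p = 1.5e-07), from stage 1 to 4 (-0.70, 0.00039) and from stage 3 to 4 (0.52, 0.013). They were also VIT_12s0059g01060 from stage 1 to 3 (-0.69, 0.00096), and VIT_18s0001g11630 from stage 1 to 3 (0.91, 0.024) and from stage 3 to 4 (-1.05, 0.0027). In flesh they were VIT_09s0002g01080 from stage 1 to 3 (2.34, 0.019) and from stage 1 to 4 (2.59, 0.01). Stage 1 enters 6 of the 8, and the seeded stage 1 libraries were the shallowest of their tissue by mean depth; the part of depth in these changes was tested only as given under the processing.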

How the results depend on the processing

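Of 45 called values of members, 26 kept call and direction under all alternatives run. These 26 include VIT_13s0064g01480 between treatments in skin at stage 1, from stage 1 to 3 in skin, and between tissues at stage 1. They add no support, as this gene passed the filter only through seeded skin at stage 1. Kept too were the tissue calls of VIT_14s0128g00780 at stages 3 and 4, a gene too low to be tested in flesh. Those calls add no support either, as the gene did not pass the filter in flesh. None of the 45 turned direction in 780 recomputations, of which 87 lost the call. With all libraries thinned to 608901 counts, 10 of the 33 values still tested lost it, 3 of them of VIT_06s0004g01510 and 4 of VIT_18s0001g11630; DESeq2 lost 4, no filter 2, relative log expression size factors 3 and leaving out ENSRNA rows 2 of 45; fits of 6 libraries lost 1 of 10, and fits without the seeded stage 1 libraries 0 of 23. The replicate number as a block lost 0 of 45. It made 2 member calls in flesh at stage 3 and 2 at stage 4, for which the share over all genes is not given. Same-numbered seedless and seeded libraries deviated together with r from -0.112 to 0.212, and 21 of 36 libraries correlated best with their own number. For skin and flesh r was 0.069 to 0.290, over 0.1 in 13 of 18 pairs, and all 36 correlated best with their own number, a hint from the data and not the design. With skin and flesh as a pair as replicate block, the unequal treatment effect in the tissues was called for 563, 275 and 83 genes at stages 1, 3 and 4, against 324, 66 and 19 without it, and for 1 member each at stages 1 and 3.

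Thinned to a common depth, genes called between seedless and seeded berries numbered 1343, 516 and 173 in flesh and 1462, 583 and 168 in skin at stages 1, 3 and 4, between tissues 3142, 2965 and 3172, and over the steps from stage 1 to 3 and 3 to 4 1156 and 2475 in flesh and 1368 and 2317 in skin. Changes of the treatment difference from stage 1 to 3, 3 to 4 and 1 to 4 numbered 472, 148 and 700 genes in flesh and 459, 403 and 964 in skin, and tissue differences of it 123, 18 and 1. Members called at that depth numbered 0, 1 and 0 in flesh and 2, 0 and 1 in skin between treatments, 3, 2 and 3 between tissues, 1 in flesh and 2 in skin from stage 3 to 4, and 0 for each stage change of the treatment difference in flesh. With the depth equal, fewer genes were tested. Their number is not given, so these member counts cannot be set against a share of all genes.

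Without the filter, members called between treatments in flesh numbered 4, 2 and 2, the stage changes in flesh 3 from stage 1 to 3 and 1 from stage 3 to 4, and the tissue difference of the treatment effect 1 at stage 1, with 212 and 113 genes at stages 3 and 4. DESeq2 gave 163 and 36 genes there and 0 members in flesh at stage 4, as did relative log expression size factors and no ENSRNA rows (0 each). Those size factors gave 2 members in flesh at stage 3. Without the seeded stage 1 libraries, 123 genes differed between tissues in their treatment effect at stage 3, and members called were 2 in flesh at stage 4 and 0 in skin at stage 3, where VIT_13s0064g01480 no longer passed the filter. The 6-library fit gave 0 members in skin at stage 3 and 785 genes at stage 4. DESeq2 moved the median of all genes by 0.18 and 0.15 log2 units for the flesh changes of the treatment difference from stage 1 to 3 and 1 to 4, and by 0.11 for the skin change from stage 1 to 3. The causes of these changes were not tested. Numbers of genes tested under these settings are not given, so the member counts here cannot be set against a share of all genes.

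With a library left out, members called between treatments ranged in flesh from 0 to 4, 0 to 2 and 0 to 2 at stages 1, 3 and 4, and in skin from 0 to 1 and 0 to 2 at stages 3 and 4. Stage changes of the treatment difference ranged in flesh from 0 to 2 (1 to 3), 0 to 1 (1 to 4) and 0 to 1 (3 to 4), and in skin from 1 to 2 (1 to 4 and 3 to 4). Tissue differences of it ranged from 0 to 1 at stages 1 and 3. These ranges of members too are given without the share over all genes. Genes called ranged from 964 to 1500 and 242 to 398 in flesh at stages 3 and 4, from 997 to 1250 and 253 to 445 in skin, from 287 to 626 for the flesh change from stage 3 to 4, and from 206 to 366, 32 to 100 and 3 to 21 for the tissue differences. VIT_06s0004g01510 reads per hydroperoxide lyase read differed in skin at stage 3 by -0.017 to 0.106.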

Other observations

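Among 9306 genes whose mean reached 10 CPM, those whose 12 group means on log2(CPM + 1) followed a member most closely by Pearson's r are given as a description. The groups share their libraries' depth and the large difference between the tissues. For VIT_06s0004g01510 they were VIT_00s0809g00020 (0.989), VIT_01s0011g00720 (0.984) and VIT_02s0025g04340 (0.983). For VIT_12s0059g01060 they were VIT_10s0003g03930 (0.987), VIT_02s0025g04340 (0.985) and VIT_08s0105g00300 (0.985), of which VIT_02s0025g04340 left the first 3 with a pseudocount of 0.1. For VIT_18s0001g11630 they were VIT_18s0001g04730 (0.959), VIT_13s0064g00920 (0.958) and VIT_04s0008g04370 (0.957). The files give no names for these genes.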
